A study of Mus musculus with 9 samples.

Results

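Nascent transcription in mouse liver at 18 months of age was compared with that at 12 months over all annotated genes of chromosomes 1 to 19. Every gene type was taken, short genes and genes with close neighbours included, and 14401 of 51229 annotated genes had a mean of 50 or more sense reads in the 6 libraries compared. tNET-seq, the assay used, is native elongating transcript sequencing adapted to tissue. It reads the 3′ ends of RNA that stays bound to chromatin, so that a read of nascent RNA marks the position of an RNA polymerase. The livers came from male C57BL/6N mice fed freely, and each age (3, 12 or 18 months) had 3 libraries. Alpha-amanitin, an inhibitor of RNA polymerase II, was present during fractionation of all 9 samples, so no group is free of it. Each library came from the liver of a different mouse per the study's methods, and whole liver holds several cell types.

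Hepatocytes make most of the plasma proteins, clear lipids, amino acids and foreign compounds, and carry sex-dependent programmes that follow the rhythm of growth hormone. Kupffer cells, the macrophages of the liver, endothelial cells, stellate cells and cholangiocytes make up much of the rest. Reads from chromatin also include mature RNA that stays in the nucleus, spliced exons and processed small RNA. For that reason intronic and exonic reads were also counted apart. In bulk tissue, fewer cells of a type and less transcription per cell cannot be told apart.

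The libraries of 12 and 18 months held between 15003713 and 50707801 reads, the deepest being 12 months replicate 2 and the shallowest 18 months replicate 1. All 11 hepatocyte markers were read, and their summed level was 21270 to 25180 RPM (reads per 1000000 reads in tested genes, after TMM scaling) at 12 months and 17150 to 21410 RPM at 18 months. The albumin gene Alb had 7627, 10160 and 8347 RPM at 12 months and 6232, 8539 and 5754 RPM at 18 months. Summed Kupffer cell markers ranged from 249 to 327 RPM at 12 months and from 218 to 293 RPM at 18 months. Lymphocyte markers ranged from 63.9 to 89.6 RPM and from 70.5 to 116 RPM at these ages, endothelial markers from 1206 to 1427 RPM and from 1046 to 1340 RPM, and stellate cell markers from 387 to 461 RPM and from 360 to 407 RPM. Cholangiocyte markers ranged from 165 to 176 RPM at 12 months and from 124 to 180 RPM at 18 months. All of these ranges overlapped. No marker of any list was at 0 in all 6 libraries. Genes of pancreatic digestive enzymes, a list written after some of their values were seen, summed to 86.9 RPM in 12 months replicate 2 and 136 RPM in replicate 3, against 10.7 RPM in 12 months replicate 1 and 11.9 to 15.5 RPM at 18 months. They made up 8 of the 12 genes whose log2 difference was 2 or more in size.

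The library of 18 months replicate 2 lay closer to the 12-month libraries than the others of its age did. Across genes, which are not independent replicates, its log2 reads correlated with those of 12 months replicates 2 and 3 at 0.986 and 0.989, and with those of 18 months replicates 1 and 3 at 0.983 and 0.984. Those 2 libraries correlated with each other at 0.984, so correlations within the age did not set it apart. On the second principal component it scored -0.31, while the other 18-month libraries scored -24.7 and -18.1 and the 12-month libraries 11.9 to 20.6. The counts of calls over all genes are therefore given with and without it, as are medians of lists and gene types that it moved by over 1.5 times or by 0.1 or more. The library to leave out was picked from these same values. Leaving out the 18-month library nearest the other age tends to widen the differences. Calls and adjusted p values without it are therefore description and lend no support.

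Of the 14401 genes, 3 (0.0208%) differed between the ages at an adjusted p under 0.05 (edgeR quasi-likelihood test over all 9 libraries). Etfbkmt and Gm27694 rose (0.0139%), and Slco1a4 fell (0.00694%). An unadjusted p under 0.05 was reached by 2647 genes (18.4%), 1470 higher at 18 months (10.2%) and 1177 lower (8.17%). The 3 libraries of one age lay wholly above those of the other in 3336 genes (23.2%), of which 1869 (13%) were higher and 1467 (10.2%) lower. DESeq2, an alternative test, called 461 genes (3.2%), 287 higher (1.99%) and 174 lower (1.21%), with a median size of 0.52 on the log2 scale. Without 18 months replicate 2, edgeR called 257 genes (1.78%), 120 higher (0.833%) and 137 lower (0.951%). These 257 included the 3 genes called over all libraries and 144 of the genes called by DESeq2. The count of calls was 0 without 3 months replicate 2 or without any one 12-month library, and 1 without 18 months replicate 1, when Tbc1d4 alone passed (log2 change 0.95, adjusted p = 0.0235).

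Slco1a4 encodes a transporter of organic anions through which hepatocytes take up bile acids and drugs. It had 63.4, 53.03 and 53.95 RPM in 12 months replicates 1 to 3 and 19.9, 25.1 and 16.3 RPM in 18 months replicates 1 to 3. The groups lay far apart, and every 18-month library was also below the 3-month libraries, at 40.9, 43.8 and 43.9 RPM. Its log2 fold change was -1.47 ± 0.15 (SE, edgeR adjusted p = 0.0145), a level 2.77-fold lower at 18 months. Introns gave -1.6 and exons -1.20 on the log2 scale. The gene lies on the minus strand at chr6:141805440-141856199 (GRCm38).

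Etfbkmt encodes a methyltransferase of the electron transfer flavoprotein, which feeds electrons from fatty acid oxidation into the respiratory chain. Its level was 20.3, 19.4 and 18.99 RPM in the 12-month libraries and 42.9, 36.1 and 38.3 RPM in the 18-month libraries. The 3-month libraries, with 40.1, 39.7 and 47.7 RPM, lay near those of 18 months. The log2 fold change from 12 to 18 months was 1.00 ± 0.10 (SE, edgeR adjusted p = 0.0145), and introns (0.99) and exons (0.98) gave nearly the same value. The gene is on the plus strand at chr6:149139849-149151171.

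The promoters of these 2 protein-coding genes are shown because the genes moved in opposite directions and differ in base composition. Each sequence holds the 250 bases before the RefSeq start, from chr6:141856221-141856470 on the minus strand for Slco1a4 and from chr6:149141263-149141512 on the plus strand for Etfbkmt (GRCm38.p6).
Slco1a4: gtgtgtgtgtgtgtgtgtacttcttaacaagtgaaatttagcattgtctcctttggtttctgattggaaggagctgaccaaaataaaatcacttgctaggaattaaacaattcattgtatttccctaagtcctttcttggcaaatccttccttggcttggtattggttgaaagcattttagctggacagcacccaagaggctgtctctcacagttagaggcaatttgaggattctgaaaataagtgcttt
Etfbkmt: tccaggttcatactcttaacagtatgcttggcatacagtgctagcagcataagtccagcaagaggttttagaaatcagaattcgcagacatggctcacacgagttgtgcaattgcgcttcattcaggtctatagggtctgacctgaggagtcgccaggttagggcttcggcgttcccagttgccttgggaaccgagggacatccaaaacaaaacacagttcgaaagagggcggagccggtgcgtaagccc
The Slco1a4 promoter had a GC content of 39.2% and no CpG, and the Etfbkmt promoter had 51.2% and 11 CpG. The median over all promoters of chromosomes 1 to 19 was 52.4% GC and 6 CpG. Neither sequence held the core of an antioxidant response element (TGACNNNGC) or of a STAT5 site (TTCNNNGAA) on either strand, so no letters are in capitals.

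Gm27694 is annotated as an RNA of 86 bases on the minus strand at chr19:5799000-5799085, inside the span of Malat1 (chr19:5795690-5802672), a nuclear long non-coding RNA. Its reads were also counted for Malat1, since the 2 genes share a strand. It had 57.3, 60.6 and 64.9 RPM in the 12-month libraries, 108.6, 121.5 and 107.1 RPM in the 18-month libraries and 77.1 to 83.7 RPM in the 3-month libraries. The ages did not overlap, and the log2 fold change from 12 to 18 months was 0.88 ± 0.08 (SE, edgeR adjusted p = 0.0145). Malat1 as a whole had 5407, 5102 and 6199 RPM at 12 months and 7699, 6724 and 8023 RPM at 18 months, a log2 difference of 0.43 ± 0.17 (SE) that edgeR did not call (adjusted p = 0.228) and DESeq2 did (adjusted p = 0.0184). The sequence is shown because its reads gathered on few bases. In 5 of the 6 libraries the position with most reads was base 56, in capitals, counted from the 5′ end.
Gm27694: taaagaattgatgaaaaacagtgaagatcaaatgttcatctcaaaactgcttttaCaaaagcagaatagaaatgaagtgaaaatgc
Base 56 held 13.2% to 19.2% of its reads in each library. With at most 5 reads counted per position, the log2 difference of Gm27694 was 0.25 (edgeR adjusted p = 0.723), so it was not called. Gm27694 has 86 bases and held 964 to 5061 reads per library, so the cap left out most reads in each. The capped value therefore cannot show whether the difference holds.

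All 3 calls depended on single libraries. Without 3 months replicate 2 the adjusted p of Gm27694, Etfbkmt and Slco1a4 was 0.0524, 0.0524 and 0.0527. Without a 12-month library it was 0.075 to 0.143, and without 18 months replicate 1 it was 0.0595, 0.0595 and 0.101. Without 18 months replicate 3 only Etfbkmt was lost among the 3 (adjusted p = 0.0740). Without TMM factors Gm27694 was lost (adjusted p = 0.0538) and Tbc1d4 passed (adjusted p = 0.0251). All 3 were lost with replicate number as a block (edgeR adjusted p = 0.0663 for Gm27694 and 0.0624 for each of the others). They were also lost with the 6 libraries alone (edgeR adjusted p = 0.135 each). The log2 values themselves stayed between 0.82 and 0.93 for Gm27694, between 0.92 and 1.05 for Etfbkmt and between -1.66 and -1.32 for Slco1a4 when libraries were left out in turn.

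**Figure D1:**
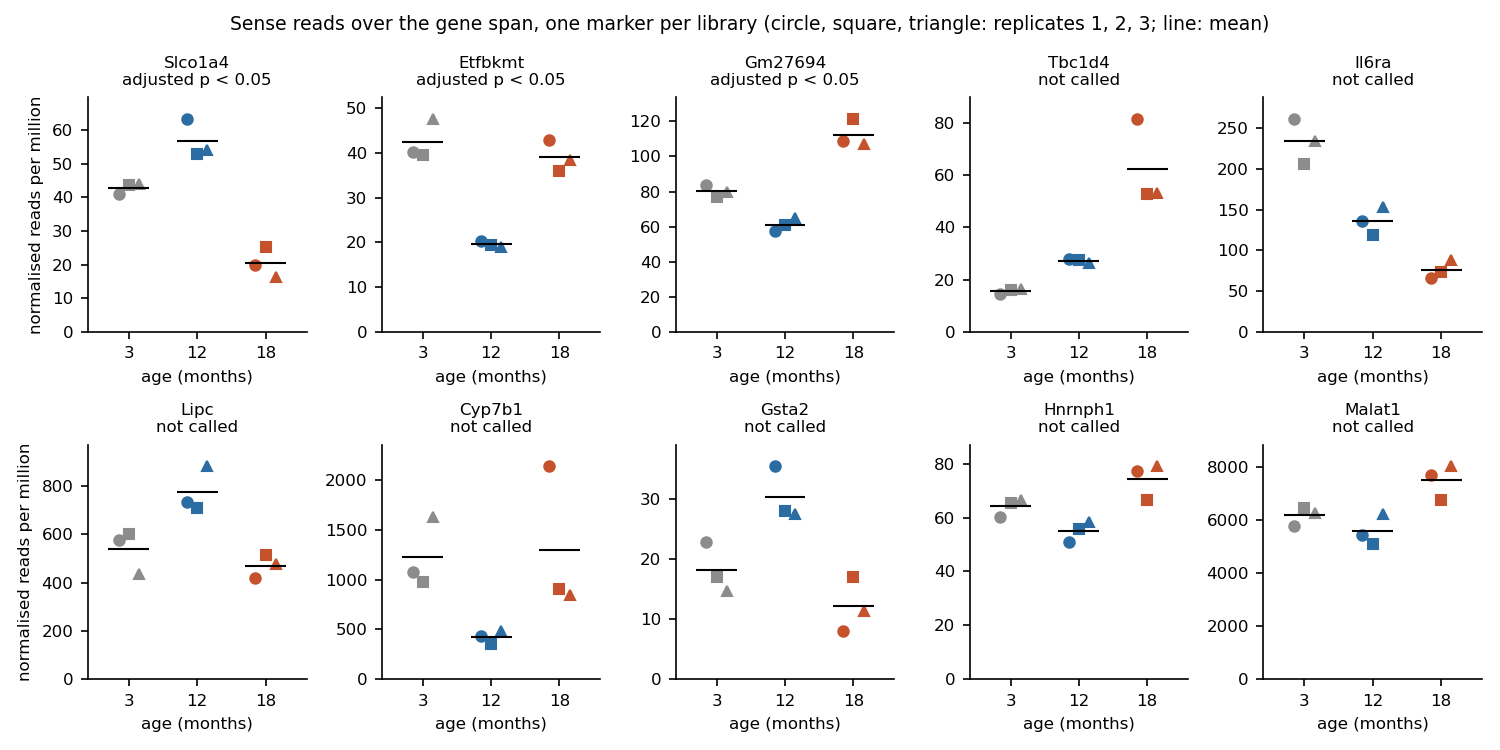
Normalised reads over the gene span in RPM (y axis) against age in months (x axis) for 10 genes, with 1 marker per library (circle, square and triangle for replicates 1, 2 and 3) and a line at the mean of each age. Slco1a4, Etfbkmt and Gm27694 had an adjusted p under 0.05 (edgeR), and the other 7 genes were not called. In Cyp7b1, 18 months replicate 1 lay at 2146 RPM and the other 18-month libraries at 903 and 851 RPM.

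Below these calls, the genes of smallest unadjusted p without overlap between the ages are given as values that did not pass the test. Tbc1d4, a regulator of Rab proteins in insulin-dependent glucose transport, had 28.0, 27.5 and 26.3 RPM at 12 months and 81.7, 53.03 and 53.1 RPM at 18 months, with a log2 difference of 1.20 (edgeR adjusted p = 0.0693). E2f7, an atypical E2F repressor that takes part in the polyploidy of hepatocytes, was near the lower end of the levels, with 1.96, 1.78 and 1.69 RPM and then 3.96, 4.08 and 3.61 RPM (log2 difference 1.11, edgeR adjusted p = 0.0615). The 2 neighbours Tcaim (chr9:122805539-122836334) and Zfp445 (chr9:122844529-122866006), on opposite strands, were both higher at 18 months. Tcaim, a mitochondrial protein gene, had 17.5 to 19.7 RPM and then 26.1 to 29.0 RPM (log2 difference 0.61), and Zfp445, a zinc finger gene with a role in imprinting, had 108.0 to 115.7 RPM and then 149.7 to 164.2 RPM (0.51). Fam135a had a log2 difference of 0.65, and the non-coding genes Gm34907, Gm17066 and Gm38282 had 1.27, 0.64 and 1.51. In Gm38282, 78.8% of the reads lay on its top position.

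On the lower side, Il6ra, the receptor subunit through which interleukin-6 acts on hepatocytes, had 135.8, 119.4 and 152.7 RPM at 12 months and 66.4, 74.0 and 88.1 RPM at 18 months (log2 difference -0.83, edgeR adjusted p = 0.130). The 3-month libraries were higher than those of both later ages, at 206.2 to 261.6 RPM. Abcc3, an efflux pump for conjugated bile acids and drug metabolites, had 315.7, 321.0 and 337.7 RPM and then 216.0, 238.8 and 201.9 RPM (-0.57). Slc8b1, the mitochondrial sodium-calcium exchanger, had a log2 difference of -0.68, and Slc16a7, a monocarboxylate transporter, had -0.74. Rgs16, a brake on G-protein signalling in hepatocytes, had 61.6, 51.3 and 46.8 RPM and then 27.7, 18.4 and 20.3 RPM (-1.28). Acot1, an acyl-CoA thioesterase, and Fam19a2 had -0.70 and -1.0. Syt6, of the synaptotagmins, had -0.96, but -0.42 with at most 5 reads per position, and 31.6% of its reads lay on its top position. For these genes the edgeR adjusted p lay between 0.13 and 0.134.

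**Figure D2:**
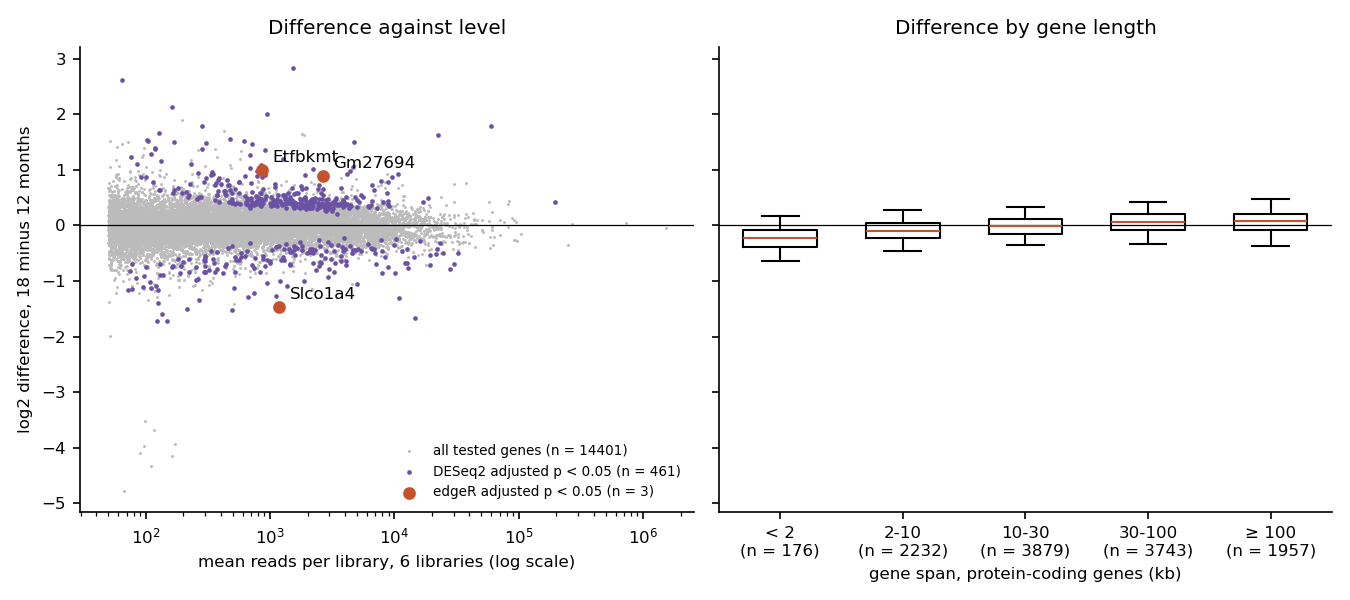
Left, the log2 difference between 18 and 12 months (y axis) against mean reads per library (x axis, log scale) for 14401 genes, with the 461 genes called by DESeq2 in purple and the 3 called by edgeR in orange. Right, the same difference for protein-coding genes by length of the gene span, as boxes from the lower to the upper quartile with the median as a line. Whiskers reach beyond the quartiles and leave out the most extreme genes. Medians run from -0.23 under 2 kb to 0.07 at 100 kb or more.

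Differences varied with gene length in protein-coding genes. Among 176 genes with a span under 2 kb the median log2 difference was -0.23, and 4 were higher (2.27%, against 10.2% of all genes) and 40 lower (22.7%, against 8.17%) at an unadjusted p under 0.05. That median was -0.35 without 18 months replicate 2. Genes of 2 to 10 kb had a median of -0.10 (2.55% higher, 13.3% lower, n = 2232), and those of 10 to 30 kb had -0.02 (7.32% higher, 8.53% lower, n = 3879). Genes of 30 to 100 kb had 0.07 (17.9% higher, 5.66% lower, n = 3743), and those of 100 kb or more also had 0.07 (14.9% higher, 4.50% lower, n = 1957). In the longest class the median was 0.01 from introns and 0.02 from exons. In the shortest it was -0.21 from introns, where only 13 of the 176 genes had enough reads, and -0.19 from exons (n = 163). The share of exonic reads among reads of protein-coding genes was 33.0%, 32.8% and 31.6% at 12 months and 29.3%, 32.9% and 28.2% at 18 months (exact permutation test, two-sided, p = 0.3, where the smallest possible p is 0.1). Its part in these differences was not tested. Protein-coding genes over 2 kb with no coding neighbour within 2.5 kb had a median of 0.03 (12.8% higher, 7.50% lower, n = 5843), and the other 8558 genes had -0.02 (8.43% higher, 8.63% lower).

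Genes of splicing and mRNA processing were higher at 18 months in 56 of 62 measured members, although none passed the adjusted test in edgeR. The study had already linked a cluster of genes rising with age in these libraries to mRNA processing and splicing. This list was written with earlier results of these data known, so its shares are description and no independent support. The median log2 difference was 0.24, against 0.00 over all genes. At an unadjusted p under 0.05, 37 (59.7%, against 10.2% of all genes) were higher and 1 was lower. Without overlap 41 were higher (13% of all genes were), and DESeq2 called 9 (14.5%, against 1.99%). Hnrnph1, an RNA-binding regulator of exon choice, had 50.9, 55.7 and 58.2 RPM at 12 months and 77.4, 66.6 and 79.2 RPM at 18 months (log2 difference 0.44). Srsf11, of the serine and arginine rich splicing factors, had 71.3, 73.8 and 82.8 RPM and then 98.7, 93.4 and 105.8 RPM (0.39). Prpf4b, a kinase of the spliceosome, had 59.3, 60.2 and 61.8 RPM and then 74.7, 73.1 and 79.6 RPM (0.33). In each of these 3 genes every 18-month library was above every 12-month library. Introns alone gave smaller log2 differences than exons in Hnrnph1 (0.08 and 0.61), Srsf11 (0.22 and 0.52) and Prpf4b (0.15 and 0.48). The list's median was 0.16 from introns and 0.29 from exons, and 0.28 without 18 months replicate 2. Introns and exons were scaled apart, which by itself can shift such values. The 283 snoRNA genes, none with an intronic value, had a median of 0.05 over spans and 0.16 from exons. The gap between introns and exons is therefore not all a difference between these genes' reads. Chromatin and histone modifiers had a smaller median of 0.09, with 6 of 41 (14.6%, against 10.2% of all genes) higher and 0 lower at an unadjusted p under 0.05, among them the histone methyltransferase genes Setd2 (0.21) and Setd5 (0.33) and the demethylase gene Kdm4c (0.27). Of 31 pausing and elongation factors, 4 (12.9%) were higher, a share near that of all genes, and 0 lower, with Cdc73 of the PAF complex at 0.44, Supt16 of the FACT complex at 0.26 and Tcea1 at 0.29, and the median was 0.00 (0.01 without 18 months replicate 2).

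Sex-biased liver genes had differences of opposite sign, and again none passed the adjusted test in edgeR. Of 21 male-biased genes, 20 had higher means in the 18-month group (median log2 difference 0.67, and 0.78 without 18 months replicate 2), 8 of them (38.1%, against 10.2% of all genes) at an unadjusted p under 0.05 and 5 called by DESeq2, which called 1.99% of all genes higher. All 11 female-biased genes measured were lower, with a median of -0.85, 5 of them (45.5%, against 8.17%) at an unadjusted p under 0.05 and 3 called by DESeq2, which called 1.21% of all genes lower. Without 18 months replicate 2 edgeR called 2 male-biased genes higher and 2 female-biased genes lower (0.833% and 0.951% of all genes). Cyp7b1, an oxysterol hydroxylase, had 431, 355 and 481 RPM at 12 months, 2146, 903 and 851 RPM at 18 months and 978 to 1635 RPM at 3 months (log2 difference 1.62, edgeR adjusted p = 0.134). Cyp4a12a, a male-specific fatty acid hydroxylase, had 13.7, 14.6 and 15.6 RPM at 12 months and 51.8, 26.5 and 29.0 RPM at 18 months (1.27). C6, a component of the complement pore, had 107, 82.1 and 127 RPM and then 258, 157 and 212 RPM (0.99). In all 3 genes 18 months replicate 1 was the highest of the 12- and 18-month libraries, and in Cyp7b1 it lay far above the other libraries of its age. On the female-biased side, Cyp17a1, a steroid hydroxylase and lyase, had 25.9, 40.9 and 26.8 RPM and then 14.2, 16.7 and 9.64 RPM (-1.21). Cyp39a1, a hydroxylase of 24-hydroxycholesterol, had 20.2, 20.7 and 21.6 RPM and then 9.03, 16.3 and 9.23 RPM (-0.83), and without 18 months replicate 2 it was called by edgeR (-1.19, adjusted p = 0.0163). Acot3, a peroxisomal thioesterase, had a log2 difference of -1.72. The male-biased median moved to 0.21 without 18 months replicate 3 and to 1.15 without 12 months replicate 3. Near-identical copies in the Cyp and Mup families can lose or share reads, so their values are uncertain.

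Genes of the growth hormone and IGF axis, which drives these sex differences in adult liver, were mixed, with a median of -0.09 (-0.05 without 18 months replicate 2), 2 of 17 higher (11.8%, near the 10.2% of all genes) and 3 lower (17.6%, against 8.17%) at an unadjusted p under 0.05. Socs2, a feedback inhibitor of growth hormone signalling, had 3.51, 6.82 and 5.33 RPM at 12 months and 23.9, 10.95 and 7.07 RPM at 18 months (log2 difference 1.35). Ghr, the receptor itself, had 2311, 2313 and 2609 RPM and then 3757, 2790 and 3201 RPM (0.43), and Stat5b, the transcription factor downstream of it, had 226, 209 and 239 RPM and then 167, 176 and 190 RPM (-0.34). No overlap was seen in these 3 genes, and none was called (edgeR adjusted p = 0.217, 0.229 and 0.190). Among male-biased genes outside the naming rule, Egfr was chosen after its values were seen: it had 866, 1199 and 870 RPM at 12 months and 5435, 3237 and 1461 RPM at 18 months (1.79, edgeR adjusted p = 0.141). The STAT5 core TTCNNNGAA was found on either strand in 0 of 15 male-biased and 0 of 5 female-biased promoters that could be matched (250 bases before the RefSeq start), and in 7.24% of all such promoters.

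Defence against foreign and oxidising compounds was lower in values. Of 24 NRF2 targets and glutathione genes 21 were lower, with a median log2 difference of -0.36 (-0.46 without 18 months replicate 2), 11 (45.8%, against 8.17% of all genes) at an unadjusted p under 0.05. Without overlap 10 were lower (10.2% of all genes were), and DESeq2 called 6 (1.21% of all genes). EdgeR called 4 lower without 18 months replicate 2 (0.951% of all genes). Gsta2, a glutathione transferase, had 35.6, 28.0 and 27.6 RPM at 12 months and 8.001, 17.1 and 11.4 RPM at 18 months (-1.29), and without 18 months replicate 2 it was called by edgeR (-1.62, adjusted p = 0.0330). Gstm3, another transferase, had 10.8, 14.5 and 9.37 RPM and then 6.31, 7.45 and 5.68 RPM (-0.83). Together with Abcc3, described above, these were the members of smallest p. The antioxidant response element core TGACNNNGC stood on either strand in 5 of 18 promoters of this list (27.8%), against 10.3% of all promoters and 11.9% of those of tested genes. The 5 genes that held it had log2 differences of -0.11 (Gclm), -0.43 (Gsta3), -0.03 (Ugdh), -0.30 (Abcc4) and 0.04 (Mgst1), and none was called.

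Cytochrome P450 genes spread widely, with a median of -0.28 over 45 genes, 6 higher (13.3%, against 10.2% of all genes) and 13 lower (28.9%, against 8.17%) at an unadjusted p under 0.05. DESeq2 called 4 higher (8.89%, against 1.99%) and 7 lower (15.6%, against 1.21%), and edgeR called 1 each way without 18 months replicate 2. Cyp2c38 had 839, 741 and 627 RPM at 12 months and 327, 250 and 122 RPM at 18 months (log2 difference -1.66). Cyp3a59 had 29.3, 19.8 and 24.6 RPM and then 6.97, 9.08 and 9.11 RPM (-1.53), and Cyp2c39, close in sequence to Cyp2c38, had -1.39. The UDP-glucuronosyl- and sulfotransferases had a median of -0.17, with 0 of 24 higher and 4 (16.7%) lower. Sult1a1, a sulfotransferase of phenols, had -0.55 and was called without 18 months replicate 2 (-0.75, edgeR adjusted p = 0.0456). The values of Ugt1a1 (-0.31) and Ugt1a2 (-0.29) share reads, since these genes overlap on 1 strand. With only positions that belong to 1 gene counted, the median of the UDP-glucuronosyl- and sulfotransferases was 0.00163, so its negative sign was lost.

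Lipid and amino acid metabolism was mostly lower in values as well. Hepatocyte markers were lower in 10 of 11 genes, with a median log2 difference of -0.27, and their part in these lists was not tested. Of 21 lipoprotein genes 19 were lower, with a median of -0.31 (-0.41 without 18 months replicate 2), 1 higher and 10 lower (47.6%, against 8.17% of all genes) at an unadjusted p under 0.05. Lipc, the hepatic lipase, had 732, 709 and 883 RPM at 12 months and 419, 516 and 476 RPM at 18 months (log2 difference -0.72). Scarb1, the receptor for high-density lipoprotein, had 323, 234 and 256 RPM and then 163, 206 and 203 RPM (-0.51), and Apom, an apolipoprotein gene, had -0.44. The list's median was nearer to 0 from introns (-0.17). Of 24 genes of fatty acid oxidation 0 were higher and 6 (25%) lower at an unadjusted p under 0.05, with a median of -0.23. Among them, Acaa1b, a peroxisomal thiolase, had 1237, 1268 and 1044 RPM and then 606, 897 and 677 RPM (-0.70), and Cpt2, which completes the import of fatty acids into mitochondria, had 70.7, 63.8 and 63.0 RPM and then 48.9, 54.1 and 49.97 RPM (-0.37). Urea cycle and amino acid breakdown had a median of -0.21 (-0.35 without 18 months replicate 2), with 0 of 28 higher and 7 (25%) lower. Asl, which splits argininosuccinate in the urea cycle, had 471, 292 and 355 RPM and then 208, 250 and 208 RPM (-0.75). Hpd of tyrosine breakdown had 660, 500 and 517 RPM and then 332, 436 and 366 RPM (-0.56), and Agxt, which removes glyoxylate, had -0.50. DESeq2 called 2 lipoprotein genes, 4 of fatty acid oxidation and 4 of amino acid breakdown, all lower, where 1.21% of all genes were called lower, and edgeR none.

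**Figure D3:**
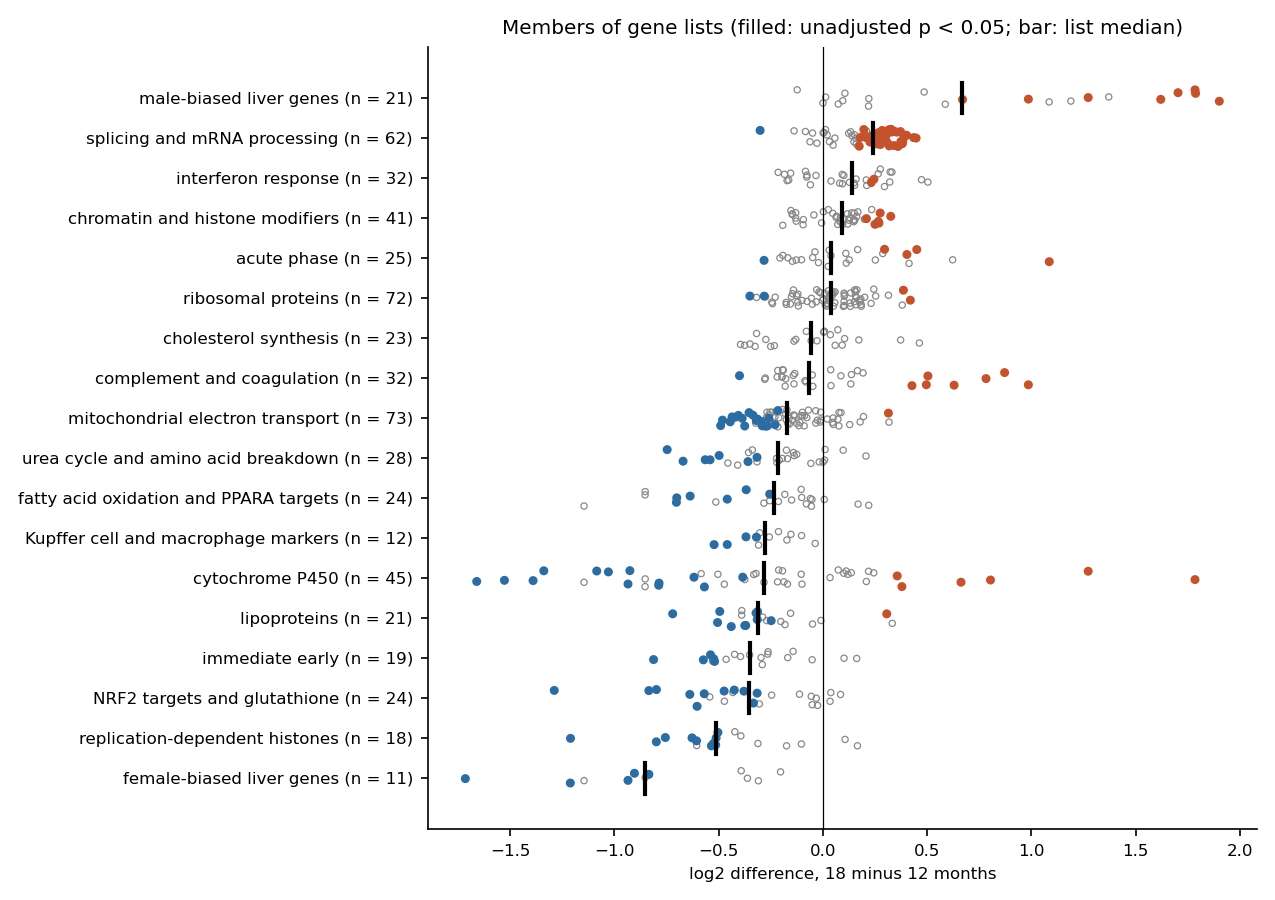
Log2 difference between 18 and 12 months (x axis) of each measured member of 18 gene lists (y axis, with the number of members), with filled markers for an unadjusted p under 0.05 (orange higher, blue lower) and a bar at the list's median. Medians run from 0.67 for male-biased liver genes to -0.85 for female-biased liver genes, with splicing at 0.24 and NRF2 targets and glutathione at -0.36.

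Other metabolic lists and the genes of liver zones had medians between -0.24 and -0.04. Cholesterol synthesis had a median of -0.06 with 0 of 23 genes at an unadjusted p under 0.05, where 10.2% of all genes were higher and 8.17% lower, and -0.30 without 18 months replicate 2. Fatty acid synthesis had -0.04 (2 of 20 higher, 0 lower; median -0.18 without 18 months replicate 2), with Acaca, the enzyme that commits carbon to fatty acids, at 452, 493 and 459 RPM and then 635, 563 and 561 RPM (0.32). Bile acid synthesis and transport had -0.13 (2 of 17 higher, 3 lower). Here Cyp8b1, which sets the share of cholic acid, had 178, 156 and 156 RPM and then 94.5, 111 and 94.0 RPM (-0.71), was called by DESeq2 (adjusted p = 0.00111), and was called by edgeR without 18 months replicate 2 (-0.79, adjusted p = 0.0483). Gluconeogenesis had -0.24 (0 of 14 higher, 2 lower) and glycolysis and glycogen -0.07, and -0.11 without 18 months replicate 2 (1 of 19 higher, 4 lower), with Pfkfb3 at 0.40. Pericentral genes, expressed near the central vein, had -0.20 (0 of 19 higher, 5 lower), and periportal genes, expressed near the portal vein, had -0.23, and -0.34 without that library (0 of 19 higher, 2 lower), so both zones had negative medians. Cyp2a5, a pericentral coumarin hydroxylase, had 38.2, 47.2 and 34.7 RPM and then 25.0, 21.9 and 12.5 RPM (-1.03). Genes of amino acid and iron transport had -0.13, and -0.01 without 18 months replicate 2 (0 of 18 higher, 2 lower), and the 2 lower ones were the ferritin genes Fth1 (-0.67) and Ftl1 (-0.56), which store iron.

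Nuclear genes of mitochondrial electron transport had a median of -0.17, with 1 of 73 higher and 20 (27.4%, against 8.17% of all genes) lower at an unadjusted p under 0.05. Without overlap 28 were lower (10.2% of all genes were). Atp5g3, of the ring of the ATP synthase, had 63.5, 59.5 and 59.8 RPM at 12 months and 41.8, 51.1 and 44.7 RPM at 18 months (log2 difference -0.41). Sdhb of complex II and Ndufb10 of complex I had -0.48 and -0.42. From introns alone the list's median was -0.02, and from exons it was -0.23. Replication-dependent histone genes, most of which are under 2 kb and without introns, had a median of -0.51, with 0 of 18 higher and 10 (55.6%) lower. Hist1h1e, a linker histone gene, had 21.3, 21.3 and 19.8 RPM and then 12.6, 18.0 and 12.5 RPM (-0.52), and was called without 18 months replicate 2 (-0.73, edgeR adjusted p = 0.0330). Hist1h1d and Hist2h2ac had -0.61 and -0.76. The median was -0.29 without the first 200 bases of each gene and -0.73 without 18 months replicate 2. The short genes as a class had negative values too, as given above. At an unadjusted p under 0.05, 22.7% of protein-coding genes under 2 kb and 13.3% of those of 2 to 10 kb were lower. Neither the electron transport list nor the histone list was compared with genes of like length. Ribosomal protein genes, also mostly short, had a median of 0.04 (2 of 72 higher, 2 lower), with Rpl24 at 0.42 and Rpl18 at -0.35, and 0.16 without 18 months replicate 2.

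Secreted and inflammatory genes had mixed values. Complement and coagulation genes had a median of -0.07 but 7 of 32 higher (21.9%, against 10.2% of all genes) and 1 lower (against 8.17%) at an unadjusted p under 0.05. Without overlap 7 were higher (21.9%, against 13% of all genes) and 7 lower (21.9%, against 10.2%), and the median was -0.12 without 18 months replicate 2. Beside C6, C8a, of the membrane attack complex, had 227, 183 and 242 RPM and then 326, 295 and 499 RPM (log2 difference 0.78), and Mbl1, a mannose-binding lectin, had 42.1, 47.6 and 41.1 RPM and then 60.3, 52.8 and 63.0 RPM (0.43). Acute phase genes had a median of 0.04, and 0.06 without that library (4 of 25 or 16% higher, 1 lower). Fgl1, a hepatokine of the fibrinogen family, had 13.2, 25.1 and 15.1 RPM and then 44.0, 29.8 and 41.2 RPM (1.09, DESeq2 adjusted p = 0.00781), Apcs, serum amyloid P, had 0.40, and Lbp, which binds lipopolysaccharide, had -0.28. The interferon response had a median of 0.14 (2 of 32 or 6.25% higher, below the share of all genes, and 0 lower), with Ifih1, a sensor of double-stranded RNA, at 0.23 and Mx2 at 0.24.

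Kupffer cell and macrophage markers were lower in values in 12 of 12 genes, with a median of -0.28 and 4 (33.3%) at an unadjusted p under 0.05, where 8.17% of all genes were lower and 10.2% higher. Cd68, a lysosomal protein of macrophages, had 6.07, 6.49 and 4.84 RPM at 12 months and 4.18, 3.699 and 4.29 RPM at 18 months (log2 difference -0.52, edgeR adjusted p = 0.159). C1qa and C1qc, of the first complement component, had -0.46 and -0.37, and MHC class II genes had a median of -0.34 (0 of 6 higher, 2 lower). Without 18 months replicate 2 the marker list had a median of -0.16, and its summed levels at the 2 ages overlapped, as given above. Endothelial markers had -0.15 (0 of 16 higher, 3 or 18.8% lower), stellate and fibroblast markers -0.09 (0 of 11 higher, 1 lower), cholangiocyte markers -0.06 (0 of 4 either way) and hepatocyte markers -0.27 (0 of 11 higher, 1 lower). The 4 lymphocyte markers measured had 0.47, with Ptprc, the leukocyte common antigen, at 19.1, 23.3 and 21.1 RPM and then 34.35, 23.99 and 27.1 RPM (0.42). Collagens and matrix genes had -0.02, and -0.04 without 18 months replicate 2 (4 of 52 or 7.69% higher and 2 or 3.85% lower, both below the shares of all genes), and Col5a2, a fibrillar collagen gene, had 5.35, 8.47 and 7.76 RPM and then 12.9, 32.8 and 17.6 RPM (1.55), with 18 months replicate 2 the highest. Without that library its log2 difference was 1.08 (edgeR adjusted p = 0.0487).

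Lists of signalling, stress and cell maintenance had medians from -0.35 to 0.05, and their counts at an unadjusted p under 0.05 stand against 10.2% higher and 8.17% lower over all genes. Immediate early genes had a median of -0.35 (0 of 19 higher, 5 or 26.3% lower). Zfp36, which speeds the decay of cytokine mRNA, had 107, 93.5 and 95.1 RPM and then 62.4, 68.0 and 38.2 RPM (log2 difference -0.81), and Jund, an AP-1 subunit, had -0.54 and was called without 18 months replicate 2 (-0.75, edgeR adjusted p = 0.0357). Glucocorticoid targets had -0.21 (0 of 16 higher, 4 or 25% lower). Zbtb16 there had 416, 423 and 663 RPM at 12 months, 229, 249 and 128 RPM at 18 months and 1331 to 2439 RPM at 3 months (-1.31), while its exonic reads alone gave 0.15. Circadian clock genes had -0.10 (-0.19 without 18 months replicate 2; 1 of 21 higher, 2 lower), with the repressor gene Nr1d1 at 145, 119 and 124 RPM and then 98.7, 106 and 102 RPM (-0.35) and Clock at 0.30. Heat shock had 0.05 (0.03 without that library; 2 of 19 higher, 2 lower), the unfolded protein and integrated stress response 0.05 (0.13 without that library; 0 of 23 higher, 4 lower), p53 targets and senescence 0.00 (-0.07 without it; 0 of 15 higher, 2 lower) and the cell cycle -0.18 (-0.29 without it; 0 of 13 higher, 1 lower). Autophagy and lysosome genes had -0.15 (1 of 21 higher, 6 or 28.6% lower), with the cargo receptor Sqstm1 at -0.30. Sirtuins, NAD and insulin signalling had -0.05 (1 of 24 higher, 2 lower), proteasome genes 0.02 (5 of 46 higher, 4 lower), snoRNA host genes -0.01 (0.06 without it; 1 of 15 each way) and named regulatory RNAs -0.08 (1 of 16 higher, 0 lower). Neat1, a nuclear long RNA, had a log2 difference of 0.03, and Rn7sk, the RNA that restrains the elongation factor P-TEFb, had -0.09.

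MicroRNA genes were mostly lower in values at 18 months. MicroRNAs are cut from hairpin transcripts and guide repression through their seed, bases 2 to 8. Of 152 genes measured, 113 were lower, with a median log2 difference of -0.28, and 3 were higher and 36 (23.7%) lower at an unadjusted p under 0.05, against 8.17% lower over all genes. None was called by edgeR, and DESeq2 called 2 higher (1.32%, against 1.99% of all genes) and 8 lower (5.26%, against 1.21%). Without 18 months replicate 2 the median was -0.44, and edgeR called 11 (7.24%, against 0.951% of all genes lower), all lower. The share of reads in miRNA genes was 0.411%, 0.404% and 0.421% at 12 months and 0.375%, 0.396% and 0.328% at 18 months. Its groups did not overlap, at 0.412% ± 0.00869 (SD, n = 3) and 0.366% ± 0.0348 (exact permutation test, two-sided, p = 0.1, the smallest possible, and 0.8 after adjustment over the gene types). The difference in share was -0.0460 percentage points, and -0.000534 with at most 5 reads per position. It lay between -0.0608 and -0.0268 without single libraries. The sequences that follow, from RefSeq with the seed in capitals, show the seeds that more than 1 of the 31 matched genes at an unadjusted p under 0.05 had among its listed mature forms. Their 57 mature forms had 50 different seeds.
let-7g-5p: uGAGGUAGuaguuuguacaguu
let-7b-5p: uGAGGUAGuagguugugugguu
let-7e-5p: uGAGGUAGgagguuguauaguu
let-7i-5p: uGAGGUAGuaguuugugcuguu
miR-27a-3p: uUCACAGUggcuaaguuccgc
miR-27b-3p: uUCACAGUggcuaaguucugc
miR-148b-3p: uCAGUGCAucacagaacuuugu
miR-152-3p: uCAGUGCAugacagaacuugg
miR-497a-5p: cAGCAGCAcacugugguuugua
miR-195a-5p: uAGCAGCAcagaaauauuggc
miR-17-5p: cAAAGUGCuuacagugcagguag
miR-106b-5p: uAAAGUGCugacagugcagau
Mir200b, Mir139 and Mir3064, shown next, were those of smallest p (Mir200b and Mir139, lower) and the smallest p on the higher side.
miR-200b-3p: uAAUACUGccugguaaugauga
miR-139-5p: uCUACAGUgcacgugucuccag
miR-3064-5p: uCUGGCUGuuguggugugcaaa

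The 4 let-7 genes of this set, whose family restrains growth genes in mature tissues, had log2 differences of -0.31 (Mirlet7g), -0.40 (Mirlet7b), -0.45 (Mirlet7e) and -0.51 (Mirlet7i). The other 6 let-7 genes measured ranged from -0.27 (Mirlet7d) to 0.32 (Mirlet7f-1), with no unadjusted p under 0.05. Mirlet7g had 111.5, 101.0 and 103.5 RPM at 12 months and 82.3, 83.0 and 90.2 RPM at 18 months. Mir27a and Mir27b had -0.41 and -0.49, Mir497 and Mir195a -0.73 and -0.37, and Mir17 and Mir106b -0.43 each. Some lower genes lie close together on 1 strand, so they may share a transcript and need not be independent. Mature forms of Mir497 and Mir195a start at chr11:70234730 and chr11:70235062, and those of Mir23b and Mir27b at chr13:63300492 and chr13:63300718. Mir148b and Mir152 had -0.91 and -1.17, with 12 months replicate 1 far above the others. Mir148b had 17.7 RPM there and 7.60 and 5.27 RPM in the other 12-month libraries, against 4.04 to 6.08 RPM at 18 months, so the groups overlapped. Mir200b, of a family tied to epithelial identity, had 2.38, 2.22 and 2.49 RPM and then 0.73, 0.60 and 1.36 RPM (-1.37, edgeR adjusted p = 0.134). Its mean over both ages, 50.3 reads, lay just above the minimum for a gene to be tested. At its 18-month level in all libraries Mir200b would not have been tested, so the filter favoured a lower value here. Mir139 had 15.8, 15.9 and 13.3 RPM and then 8.52, 10.9 and 6.55 RPM (-0.79). Mir3064 had 6.90, 5.49 and 9.90 RPM and then 13.65, 11 and 13.65 RPM (0.78).

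Reads of miRNA genes gathered at the ends of the mature forms. Positions were searched in each gene and 30 bases on each side. Of 116 genes matched to RefSeq hairpins, 84 had the position with most reads within 2 bases of the 3′ end of a mature form. In 78 of the 116 the position with most reads was the same in all 6 libraries, whether or not it lay at a mature end. The position of Mirlet7i lay in the flank, whose reads are not part of the gene's values. With at most 5 reads per position, 70 miRNA genes kept enough reads for a value. Among the 14 of them that were lower at an unadjusted p under 0.05, the median log2 difference was -0.50 with all reads and -0.03 under this cap. Mirlet7g then had 0.06 in place of -0.31, and Mir191 -0.05 in place of -0.77, while Mir3064 kept 0.55 of 0.78. In Mir3064 the position with most reads lay 6 bases from the nearest mature end. It held 13.1% to 23.4% of the reads in the gene and its flanks. Reads of any longer RNA over the same bases also count for Mir3064 and were not told apart from those of the miRNA. The top position of Mirlet7g alone held 556 to 2101 reads per library, of which the cap kept 5. Where reads gather in this way the cap largely removes a difference, so these values do not decide whether one exists.

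**Figure D4:**
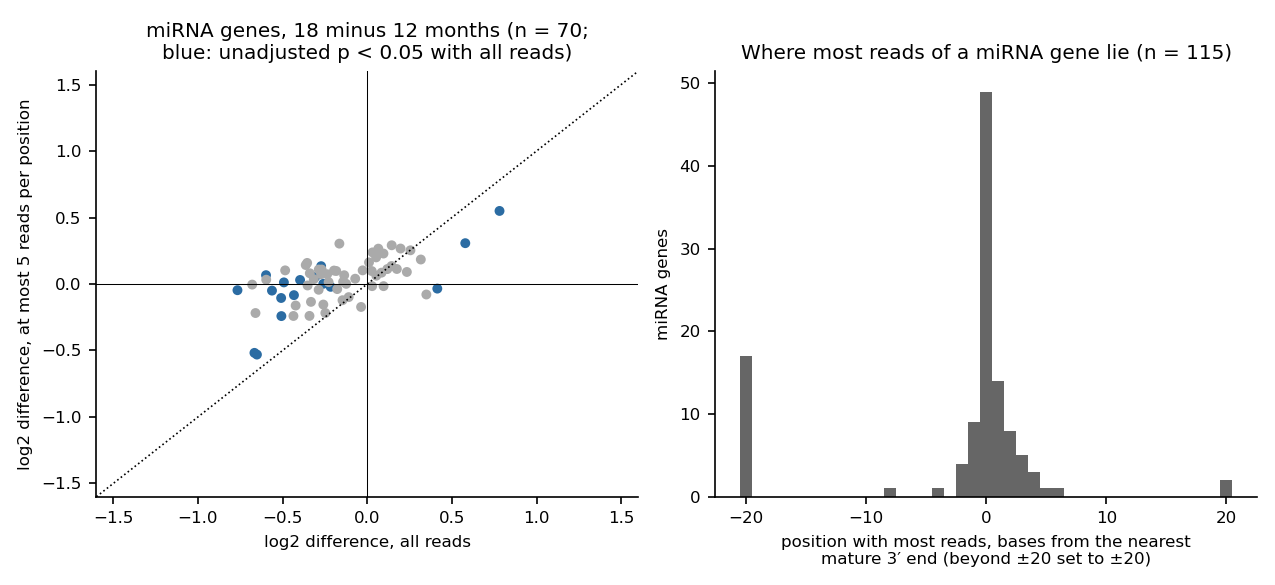
Left, the log2 difference between 18 and 12 months of 70 miRNA genes with at most 5 reads counted per position (y axis) against that with all reads (x axis), in blue where the unadjusted p with all reads was under 0.05. The dotted line marks equal values, and most genes below 0 on the x axis lie near 0 on the y axis. Right, the number of miRNA genes (y axis) by the distance in bases from the nearest mature 3′ end to the position with most reads (x axis), with the tallest bar at 0.

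Other classes of short RNA were not compared with miRNA by a test. Of 74 genes for small nuclear RNA 18 (24.3%, against 10.2% of all genes) were higher and 1 (1.35%, against 8.17%) lower at an unadjusted p under 0.05, with a median log2 difference of 0.33. DESeq2 called 6 higher (8.11%, against 1.99%) and 1 lower (1.35%, against 1.21%). Their share of reads was 0.394%, 0.268% and 0.369% at 12 months and 0.547%, 0.353% and 0.372% at 18 months, so the libraries of the ages overlapped (exact permutation test, two-sided, p = 0.5). The gene of smallest p there, Gm25080, was lower, with 3.69, 2.96 and 4.25 RPM and then 1.54, 1.95 and 2.01 RPM (-0.95), and Gm26435 was higher (0.79). Small nucleolar RNA genes, which guide modification of ribosomal RNA, had a median of 0.05 over 283 genes (9 or 3.18% higher, 3 or 1.06% lower), with Snora5c at 4.94, 4.01 and 4.67 RPM and then 8.22, 6.48 and 6.42 RPM (0.63). Of the 21 scaRNA genes 16 were lower, with a median of -0.10 and 0 at an unadjusted p under 0.05, and the 8 rRNA genes had 0.31 with 0. The medians of snoRNA, scaRNA and rRNA genes were 0.19, -0.20 and 0.03 without 18 months replicate 2. The 1195 lncRNA genes had -0.07 (62 or 5.19% higher, 125 or 10.5% lower), the 455 TEC loci, which await experimental confirmation as genes, 0.08, and 0.12 without that library (55 or 12.1% higher, 19 or 4.18% lower), and the 209 pseudogenes -0.09 (17 or 8.13% higher, 25 or 12% lower). Gm7631, a pseudogene, had 2.91, 1.55 and 2.53 RPM at 12 months, 12.99, 4.35 and 12.7 RPM at 18 months and 22.5 to 29.1 RPM at 3 months (2.14). Protein-coding genes took 63.6% to 72.3% of the reads at 12 months and 64.3% to 70.6% at 18 months.

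Promoter-proximal pausing, the halt of RNA polymerase II shortly after it starts, was compared in 4917 genes as the ratio of reads within 200 bases of the start to reads in the gene body. Ripk2 and Bzw2 fell (2 genes, 0.0407%, edgeR adjusted p under 0.05), and no gene rose (0.0%). Ripk2 (chr4:16122733-16163647, minus strand), a kinase downstream of the bacterial sensors NOD1 and NOD2, had 24, 104 and 44 promoter-proximal reads in the 12-month libraries and 10, 32 and 13 in the 18-month libraries. Its gene-body reads numbered 273, 875 and 493 and then 363, 855 and 835. The pausing index (promoter-proximal over gene-body density) was 8.88, 12.0 and 9.02 and then 2.78, 3.78 and 1.57, a log2 change of -1.92 ± 0.32 (SE, edgeR adjusted p = 0.0373). Bzw2 (chr12:36091835-36158080, minus strand), which modulates the choice of start codons, had 28, 114 and 68 promoter-proximal reads and then 14, 36 and 12, with an index of 28.7, 41.8 and 47.8 and then 13.9, 12.5 and 6.04 (-1.92 ± 0.32, edgeR adjusted p = 0.0373). Neither gene differed in reads over the whole span beyond a log2 value of 0.42. These are few reads, and both calls were lost without any one of 7 libraries, all but 12 months replicate 1 and 18 months replicate 2 (adjusted p from 0.0692 to 0.266). Both were also lost with replicate number as a block (edgeR adjusted p = 0.0684 each) and with the 6 libraries alone (0.149 each). Bzw2 was lost with a window from 20 to 100 bases (edgeR adjusted p = 0.0687) and Ripk2 at the 5′ end of the span (0.0625). On the higher side the smallest p values were those of Gm10616 (0.95), Csrnp2 (1.35) and Gm26733 (1.25), with edgeR adjusted p between 0.122 and 0.141.

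Over all 4917 genes the ratio was lower at 18 months in 4288 (87.2%), with a median log2 change of -0.42. At an unadjusted p under 0.05, 15 genes (0.305%) were higher and 1160 (23.6%) lower. The median pausing index was 1.96, 2.15 and 2.05 in the 12-month libraries, 1.54, 1.87 and 1.16 in the 18-month libraries and 2.61 to 2.97 in the 3-month libraries. The 12- and 18-month libraries did not overlap, with means of 2.05 ± 0.098 (SD, n = 3) and 1.52 ± 0.357 (exact permutation test, two-sided, p = 0.1, the smallest possible). The share of promoter-proximal reads among promoter-proximal and gene-body reads of these genes did overlap. It was 3.229%, 2.974% and 3.155% at 12 months and 2.728%, 3.002% and 2.219% at 18 months (exact permutation test, p = 0.2). The highest 18-month library was again replicate 2. Without it edgeR called 1089 genes (22.1%), 1 higher (0.0203%) and 1088 lower (22.1%), and the median change was -0.64. Without 18 months replicate 3 the median was -0.23, with 539 genes at an unadjusted p under 0.05, and without 12 months replicate 2 there were 694 such genes.

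**Figure D5:**
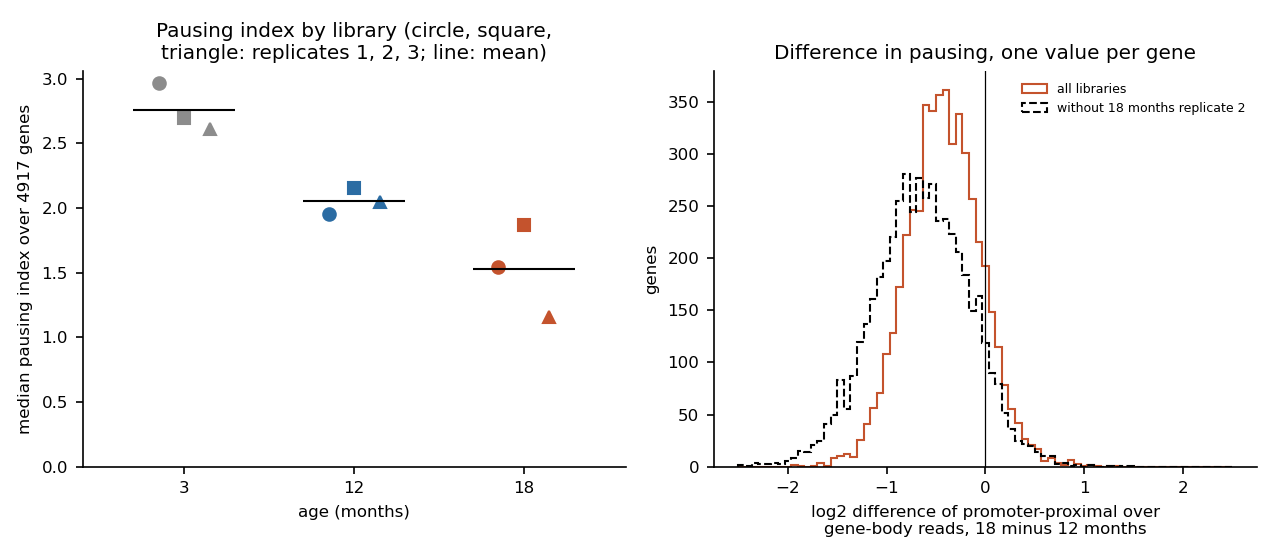
Left, the median pausing index over 4917 genes (y axis) by age in months (x axis), with 1 marker per library and a line at the mean of each age. Right, the number of genes (y axis) by log2 difference in promoter-proximal over gene-body reads between 18 and 12 months (x axis), over all libraries (solid orange) and without 18 months replicate 2 (dashed black). The 18-month libraries lie between 1.16 and 1.87, below the 12-month libraries, and most genes lie left of 0.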

How the data were processed

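Per the submitters' processing notes, cutadapt 1.13, STAR 2.7.3a and bedtools 2.29.2 were used on GRCm38. The files deposited by the authors hold unscaled counts of reads at each position of each strand, where a position marks an RNA 3′ end. How random barcodes were used for these counts is not given in the sources used here, so counting error may be understated. Nor is it known whether counts at the most read positions were limited before deposit, which would understate RNAs read at few positions. Here counts were summed in sense over GENCODE vM21 gene spans, and a position shared by several genes counted for each (4578 tested genes overlapped another on their strand). Members and lists were chosen with earlier results of these data known. The test was the quasi-likelihood test of edgeR 4.0.16 (limma 3.58.1, R 4.3.3; TMM, 3 ages in 1 model, contrast 18 minus 12 months, Benjamini-Hochberg at 5%). Pausing used the interaction of region and age with a term per library, in transcripts of 2 kb or more with at least 20 reads in each region. Both were run on simulated data as a check of the code, which does not show that small differences would be called. With 3 libraries per age, few calls do not show that few genes differ. P-values measure the spread between these samples only.

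Alternatives were DESeq2 1.42.0, no TMM or relative log expression factors, minimum reads of 10 and 200, only 6 libraries, replicate number as a block, at most 5 reads per position, no first 200 bases, intronic, exonic or single-gene positions, thinned libraries, for pausing a window from 20 to 100 bases, the end of the gene span and a higher minimum, and leaving out each library. Shares were compared by exact permutation tests. Python 3.11.15, numpy 2.4.6, pandas 2.3.3, scipy 1.17.1 and matplotlib 3.10.9 were used.

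Genes named were all called genes, then the smallest unadjusted p without overlap up to 10 per direction, up to 3 members for each of the 46 lists at an unadjusted p under 0.05, 2 per gene type, 3 per direction for pausing where fewer were called, and Alb, Malat1, Neat1 and Rn7sk. Some genes under this rule are not reported here. Other miRNA genes were named for their seeds, and genes that held a motif for it. Deviations of same-numbered libraries of 12 and 18 months correlated at 0.203, 0.042 and 0.074, so numbers were not taken as pairs. RefSeq tables gave miRNA and promoter sequences (GRCm38.p6), and the genome gave that of Gm27694.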

Additional observations from a re-analysis of the deposited data

Results flagged for a closer look

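Reads of the mitochondrial chromosome, which the comparisons of genes left out, took a larger share of the libraries at 18 months. The share of all reads was 0.680%, 0.966% and 0.879% at 12 months and 1.12%, 1.29% and 1.20% at 18 months, with means of 0.842% ± 0.147 and 1.202% ± 0.0859 (SD, n = 3; exact permutation test, two-sided, p = 0.1, the smallest possible). The 3-month libraries had 0.749%, 0.547% and 0.590%, so every 18-month library lay above every other library. Its part in the differences of nuclear genes was not tested.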

How the results depend on the processing

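The count of genes called at 18 against 12 months was 3 and stayed within 1.5 times without TMM factors, with relative log expression factors, with minimum reads of 10 or 200, without the first 200 bases, with positions of 1 gene only and with thinned libraries, though without TMM factors Tbc1d4 stood in place of Gm27694. It was 461 with DESeq2, 7 with the cap of 5 reads per position, 6 from exons, 1 from introns (Slco1a4) and 0 to 257 when libraries were left out in turn. It was 0 with the 6 libraries alone and 0 with the replicate block, where 2091 and 2409 genes had an unadjusted p under 0.05 (edgeR). The count of genes with changed pausing was 2, also with DESeq2. It was 9 with the cap and 0 to 1089 without single libraries. It was 0 with the window from 20 to 100 bases, from the 5′ end of the span, with at least 50 promoter-proximal reads, with the 6 libraries alone and with the replicate block, where 573, 1059, 417, 838 and 1200 genes had an unadjusted p under 0.05 (edgeR). The median change in pausing stayed between -0.642 and -0.231 under all 16 alternatives.

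The difference in share of reads turned sign for protein-coding genes (-0.290 percentage points; 0.603 with the cap, -2.56 to 1.82 without single libraries), lncRNA (0.203; -0.0410 with the cap, -0.526 to 1.02 without single libraries) and snoRNA (0.281; -0.765 to 1.06 without single libraries). Log2 values turned sign for Mcm7 (-0.29; 0.0447 with the cap, 0.207 from introns, 0.167 with positions of 1 gene only), Zbtb16 (0.153 from exons), Psmd8 (0.00588 from introns), Snhg5 (0.0781 without the first 200 bases), Gm22767 (0.131 with the cap), Alb (0.0801 with the cap), Rn7sk (0.0589 with the cap) and Neat1 (-0.0515 to 0.128 without single libraries). Positions shared with other genes on its strand thus entered the lower value of Mcm7, which its own positions alone did not show. Medians turned sign for glycolysis and glycogen from introns (0.0340), heat shock from exons (-0.0534), UDP-glucuronosyl- and sulfotransferases with positions of 1 gene only (0.00163), the proteasome from exons (-0.0527) and without single libraries (-0.0249 to 0.0605), and named regulatory RNAs with the cap (0.0496) and from exons (0.0625). A further 52 values, over 25 medians of lists, gene types and length classes, moved by more than the SD between libraries of an age without turning sign. Among named genes, introns gave a log2 value smaller by over 1.5 times in 19 of 107 and larger in 0, and exons one smaller in 12 and larger in 9 of 133. Introns and exons were each scaled on their own, which enters these shifts, and other causes were not tested. Promoter-proximal counts of 10 to 114 reads leave the pausing of single genes imprecise.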

Other observations

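Genes of pancreatic digestive enzymes were among those of largest difference, none called by edgeR, and their levels went with single libraries. Of 29 such genes, chosen after the values of 8 of them were seen, 9 had enough reads, all lower at 18 months, with log2 differences from -4.77 to -0.85 and a median of -3.97. The minimum of reads was set on the mean over both ages, so genes read mainly in 12 months replicates 2 and 3 could pass through those libraries. This filter favours genes that are lower at 18 months, so the shared direction and the median describe only the genes that passed. Ctrc, a chymotrypsin gene, had 0.65, 10.2 and 15.8 RPM in 12 months replicates 1 to 3, 1.17, 0.41 and 0.49 RPM in the 18-month libraries, and 0.78, 0.61 and 7.20 RPM in the 3-month libraries. Cel, a lipase, had 0.06, 6.57 and 10.5 RPM at 12 months and 0.66, 0.14 and 0.28 RPM at 18 months. The summed level of the 29 genes was 70.3 RPM in 3 months replicate 3 and 11.2 and 11.02 RPM in the other 3-month libraries, so 1 library of 3 months and 2 of 12 months carried them.

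Among other large differences, chosen after the values were seen, Scara5, a scavenger receptor that binds ferritin, had 14.8, 9.94 and 17.7 RPM at 12 months, 79.3, 44.1 and 46.2 RPM at 18 months and 86.9 to 184 RPM at 3 months (log2 difference 2.00, DESeq2 adjusted p = 1.76e-06, edgeR adjusted p = 0.130). The pseudogene Serpina4-ps1 had 18.7, 6.53 and 20.04 RPM at 12 months, 140, 37.1 and 140 RPM at 18 months and 66.5 to 290 RPM at 3 months (2.83, edgeR adjusted p = 0.139).

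The highest count at any position lay between 4352 and 5396 reads in all 9 libraries, although their depth ran from 15003713 to 50707801 reads. If counts were limited before deposit, levels of RNAs read at few positions (small RNAs, stretches of Malat1) are lower bounds, and so are their shares of reads.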
